A study of Rattus norvegicus with 3 samples.

Results

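The receptor activity modifying proteins Ramp1, Ramp2 and Ramp3, the calcitonin receptor-like receptor Calcrl and the peptide adrenomedullin, Adm, were followed in single cells of the postnatal rat cochlea. These 5 genes were chosen by name, with earlier results of the same data known, out of 21908 genes with at least 1 unique molecular identifier (UMI) in the cells kept and 32623 genes listed in the matrices. All 5 were detected. In the kept cells of all stages together, Calcrl (ENSRNOG00000054695) held 3215 UMIs, Ramp1 (ENSRNOG00000019926) 15216, Ramp2 (ENSRNOG00000020415) 41041, Ramp3 (ENSRNOG00000053766) 51592 and Adm (ENSRNOG00000027030) 1676.

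The samples were cochleae of untreated Sprague-Dawley rats at 3 ages after birth, namely P1 (day 1), P7 (day 7) and P14 (day 14), with 1 droplet single-cell RNA library per stage. Each library came from tissue of many rats of either sex combined, so that no animal can be told from another, and the study's methods state that spiral ganglia, spiral ligament and stria vascularis were dissected away. With 1 library per stage there was no replicate and no test: stage and library cannot be told apart, and the 95% intervals given below cover counting error only.

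Calcrl encodes CLR, a G protein-coupled receptor that reaches the cell surface only together with a RAMP, a small protein with a single membrane span. CLR with RAMP1 forms the receptor for calcitonin gene-related peptide (CGRP), and CLR with RAMP2 or RAMP3 forms the adrenomedullin receptors. Adrenomedullin is a vasodilator peptide that is induced by hypoxia, and endothelial cells of most vascular beds carry the Calcrl and Ramp2 pair.

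After the filters of the study (more than 500 and fewer than 5000 genes, and under 25% of UMIs on mitochondrial genes), 12779 cells with 98005495 UMIs remained at P1, 12581 cells with 93080129 UMIs at P7 and 5281 cells with 11641065 UMIs at P14. The median cell held 6565, 6878 and 1614 UMIs in turn, so the P14 library was the shallowest. Between 16 and 53 cell barcodes were shared by each pair of libraries, and no doublets were removed. Clustering, done without the 5 genes, gave 29 clusters, of which 11 could be named in 10 classes from marker genes, and the other 18 are given by number with their leading genes. The labels describe the cells as greater epithelial ridge cells, but the cochlear epithelium-like cluster was small, with 280 cells in the youngest library (2.19% of it), 219 in the next (1.74%) and 53 in the oldest (1.00%), and 4.94%, 4.55% and 1.23% of cells held a UMI of the epithelial adhesion gene Epcam.

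In the whole libraries, 4 of the 5 genes stood highest at P14 and Ramp3 stood highest at P7. Calcrl had a level of 10.9 CPM (the UMIs of the gene scaled to 1000000 UMIs of the same cells; 95% interval 10.2 to 11.5) at P1, 14.8 (14.0 to 15.6) at P7 and 66.5 (61.9 to 71.3) at P14. None of these intervals overlap. The level at P14 was 6.12 times that at P1, a log2 ratio of 2.61 (2.48 to 2.75), while the log2 ratio of P7 to P1 was 0.45.

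The Ramp genes differed in their order of stages. Ramp1, the partner that makes a CGRP receptor, stood at 49.6 CPM (48.2 to 51.0) at P1, 91.4 (89.5 to 93.4) at P7 and 158 (151 to 166) at P14. Ramp2, the main adrenomedullin receptor partner in vessels, stood at 157 (154 to 159), 204 (201 to 207) and 578 (564 to 592) in the same order. Ramp3, the other adrenomedullin receptor partner, stood at 118 (115 to 120), 407 (403 to 412) and 185 (177 to 193), so its highest library was P7 and its level there was 3.47 times that at P1. Adm, the ligand, was the scarcest at every stage, with 4.0 CPM (3.61 to 4.42) at P1, 8.38 (7.80 to 8.99) at P7 and 43.3 (39.6 to 47.2) at P14. Its P14 level was 10.8 times its P1 level, the largest ratio among the 5 genes, and rested on 392 and 504 UMIs.

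A common yardstick was the share of 7750 genes with at least 10 CPM over all kept cells whose level differed at least 2-fold, after 10 CPM was added to both levels. Between P14 and P1, 17.9% of these genes passed, and Calcrl, Ramp1 and Ramp2 were among them, all higher at P14. Between P7 and P1, 5.3% passed and Ramp3 was the only member among them. Between P14 and P7, 13.4% passed, with Calcrl and Ramp2 higher and Ramp3 lower at P14. Adm had a mean of 8.27 CPM over all kept cells and so lay outside the genes compared. As the genes were chosen with their levels in view, nothing is read from these shares, and the median log2 ratio over all 7750 genes was 0.09 for P7 to P1 and 0.08 for P14 to P1.

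The stage levels moved together with the make-up of the libraries. Endothelial-like cells (cluster 9) were 1.29% of cells at P1, 1.42% at P7 and 17.3% at P14. When this cluster and cluster 25, led by Slco1a4, Abcb4 and Sox17, were left out after the data had been seen, Calcrl stood at 9.88, 12.8 and 29.0 CPM and Ramp2 at 128, 174 and 351. Both were thus still highest at P14, by smaller ratios. Without the same clusters Ramp1 stood at 50.4, 92.8 and 184 CPM, Ramp3 at 118, 414 and 200, and Adm at 3.06, 7.62 and 45.3, and none of these genes changed its order of stages. More cells of a type and more RNA per cell cannot be told apart in the whole-library levels.

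**Figure D1:**
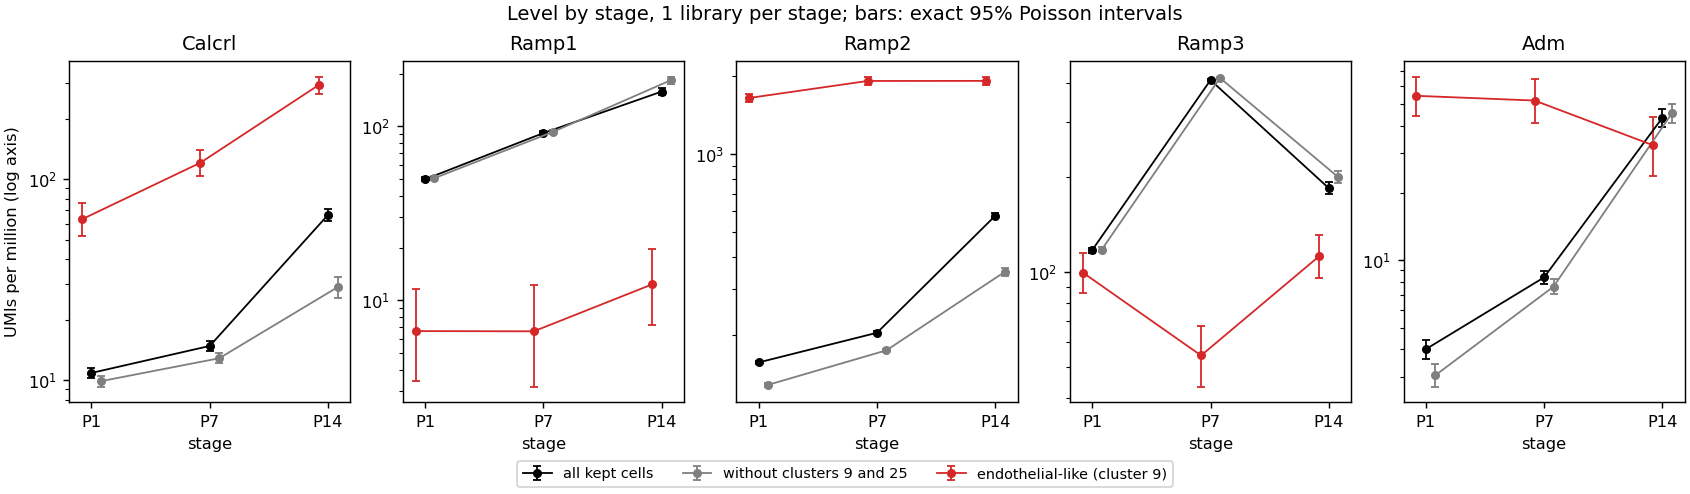
Level of each gene in CPM on a log axis at P1, P7 and P14, in all kept cells (black), in all cells but clusters 9 and 25 (gray) and in endothelial-like cells of cluster 9 (red), with exact 95% Poisson intervals as bars. Calcrl was higher at each later stage in all 3 sets of cells, Ramp2 was nearly level in endothelial-like cells, and Ramp3 peaked at P7 except in endothelial-like cells, where P7 was lowest.

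The cells that supplied the UMIs changed from stage to stage. At P1, cluster 8 (led by Cav1, Sp5 and Olfm1) held 34.4% (31.5 to 37.3) of all Calcrl UMIs in 10.6% of the cells, and endothelial-like cells held 10.7%. At P7, cluster 3 (led by Aldh1a2, Calb2 and Kcnk2) held the largest share of Calcrl, 22.1% (19.9 to 24.4), ahead of endothelial-like cells with 13.2%. At P14, endothelial-like cells held 52.3% (48.7 to 55.9) of the 774 Calcrl UMIs. Most Calcrl transcripts therefore came from cells outside the endothelial-like cluster at P1 and P7.

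Ramp1 came mainly from cluster 3 at P1 (43.6% of its UMIs) and P7 (40.0%), and from cluster 20 (led by Clec3b, Gpcpd1 and Rarres1) at P14 (39.0%). Ramp3 came first from cluster 6 (led by Plagl1, Col6a1 and Edn3) at P1, with 36.7%, then from cluster 5 (led by Aard, Dcn and Ramp3 itself) at P7, with 49.1%, and from cluster 4 (led by Coch, LOC100911545 and Dmp1) at P14, with 67.0%. For Ramp2 the first source was the endothelial-like cluster at P1 (19.4%) and P14 (39.3%), and cluster 5 at P7 (26.8%). Adm came first from endothelial-like cells at P1 (25%), cluster 1 (led by Dlx5, Sfrp4 and Gdf10) at P7 (30.8%) and cluster 13 (led by Ptgds, Slc7a11 and Slc16a11) at P14 (44.8%). No gene had the same first cluster at all 3 stages.

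Over all stages, Calcrl stood highest in the 2 clusters with vessel genes. Cluster 25 held 166.7 CPM (136 to 202) and the endothelial-like cluster 149.5 (139 to 161), and these intervals overlap. This order pools the stages. Within the P14 library alone, endothelial-like cells held 294 CPM (266 to 324) and cluster 25 held 170 (136 to 210), without overlap. The cells of cluster 25 numbered 1 at P1, 8 at P7 and 171 at P14, with summed levels of 3999 CPM for the endothelial markers and 2543 for the pericyte and smooth muscle markers, so it was not named, and the doublet caller did not work on the P14 library. Next came a group with overlapping intervals: cluster 20 with 68.4 CPM (52.2 to 88.0), cluster 26 (led by Car2, Apoc4 and Actg2) with 68.0 (53.2 to 85.6) and the pericyte and smooth muscle-like cluster with 62.5 (54.9 to 70.9). Cluster 13 with 43.5 (34.0 to 54.9), cluster 8 with 34.8 (31.6 to 38.3) and cluster 4 with 34.1 (27.8 to 41.5) came next, with intervals that overlap each other, and that of cluster 13 reaches into that of cluster 26. Glia-like cells held 0.866 and neuron-like cells 0.327 CPM, among the lowest levels. In endothelial-like cells Calcrl stood 11.8 times (10.8 to 12.8) above all other cells, where 6.57% of the 7750 genes passed the 2-fold limit upward. Calcrl and Ramp2 both passed, with Adm beside them at 6.42 times its level in other cells. These ratios pool the stages, so stage and class cannot be told apart in them. Calcrl stood at 63.2, 120.7 and 294 CPM in endothelial-like cells at P1, P7 and P14. Outside clusters 9 and 25 it stood at 9.88, 12.8 and 29.0. Adm stood at 54.3, 51.7 and 32.7 in endothelial-like cells and at 3.06, 7.62 and 45.3 outside both clusters. At P14 Adm was thus lower in endothelial-like cells.

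Ramp2 was by far the most abundant member in endothelial-like cells, with 1813 CPM (1774 to 1852) over all stages, 11.0 times (10.8 to 11.3) its level elsewhere. Cluster 25 followed with 1312 CPM, then cluster 20 with 751 (695 to 811), cluster 13 with 559 (524 to 597), cluster 4 with 503 (478 to 529) and cluster 5 with 432 (420 to 444). Only the intervals of clusters 13 and 4 overlap in that sequence. Ramp2 was thus present well beyond vessels, in clusters of mesenchymal genes such as Coch and Dcn, while glia-like cells held 14.3 and macrophage-like cells 13.5 CPM. The ratio of endothelial-like to other cells pools the stages, so stage and class cannot be told apart in it. In endothelial-like cells Ramp2 stood at 1647, 1916 and 1917 CPM at P1, P7 and P14. Outside these cells and cluster 25 it stood at 128, 174 and 351, so the ratio was smallest at P14.

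Ramp1 had a different order. Cluster 20 stood first with 819 CPM (761 to 881), followed, among clusters of 50 or more cells, by cluster 3 with 306 (298 to 314), pericyte and smooth muscle-like cells with 227 (212 to 242), cluster 4 with 203 (187 to 220) and cartilage-like cells with 144 (136 to 152). The intervals of the pericyte and smooth muscle-like cluster and cluster 4 overlap. Endothelial-like cells held only 39 Ramp1 UMIs, or 8.32 CPM, close to the 8.53 of glia-like cells. Whether this level is background was not tested. At P14, glia-like cells held 55.1 Ramp1 CPM (40.6 to 73.0) and B cell-like cells 52.5 (40.6 to 66.8), against 12.3 in endothelial-like cells. Nearly all glia-like cells of P14 lay in cluster 18 (336 cells, with 11 in cluster 2), and nearly all of P1 and P7 in cluster 2 (268 and 2472 cells, with 4 of P7 in cluster 18).

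Ramp3 had its highest level in cluster 5, which held 36.5% of its UMIs over all stages. It reached there 1549 CPM (1527 to 1571), 9.0 times its level in all other cells, where 2.66% of genes passed upward, and it was the gene with the third rank by that ratio. Cluster 5 had 49 cells at P1, 1683 at P7 and 2 at P14, so stage and cluster cannot be told apart in this ratio and rank. Within the P7 library, cluster 5 held 49.1% (48.6 to 49.6) of the Ramp3 UMIs in 13.4% of the cells. Next came cluster 4 with 488 CPM (463 to 514) and cluster 6 with 469 (456 to 482), whose intervals overlap, and then the dividing cluster 10 (led by Cenpf, Top2a and Mki67) with 388 (376 to 399). Cochlear epithelium-like cells held 212 CPM (199 to 226), endothelial-like cells 88.9, pericyte and smooth muscle-like cells 43.2 and glia-like cells 19.2. Ramp3 was therefore lower in endothelial-like than in all other cells, 0.344 times (0.312 to 0.379) their level, opposite to Ramp2.

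Adm stood highest in cluster 13, with 138 CPM (121 to 158), 19.2 times (16.6 to 22.1) its level in other cells, where 7.34% of genes passed upward. All but 3 of the 853 cells of cluster 13 came from the P14 library. The other cells came mostly from P1 and P7, so stage and cluster cannot be told apart in this ratio. Within the P14 library, cluster 13 held 44.8% (40.4 to 49.3) of the Adm UMIs in 16.1% of the cells. Over all stages, cluster 4 with 53.7 CPM (45.7 to 62.8) and the endothelial-like cluster with 47.1 (41.1 to 53.8) came next, with overlapping intervals. Cluster 25 followed with 34.6 (21.7 to 52.4). Within the P14 library alone cluster 4 held 53.9 CPM (45.9 to 63.0) and endothelial-like cells 32.7 (23.8 to 43.7), without overlap. Outside these clusters Adm was scarce: cluster 1 held 12.1 CPM and cartilage-like cells 9.95, against 2.60 in glia-like cells.

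**Figure D2:**
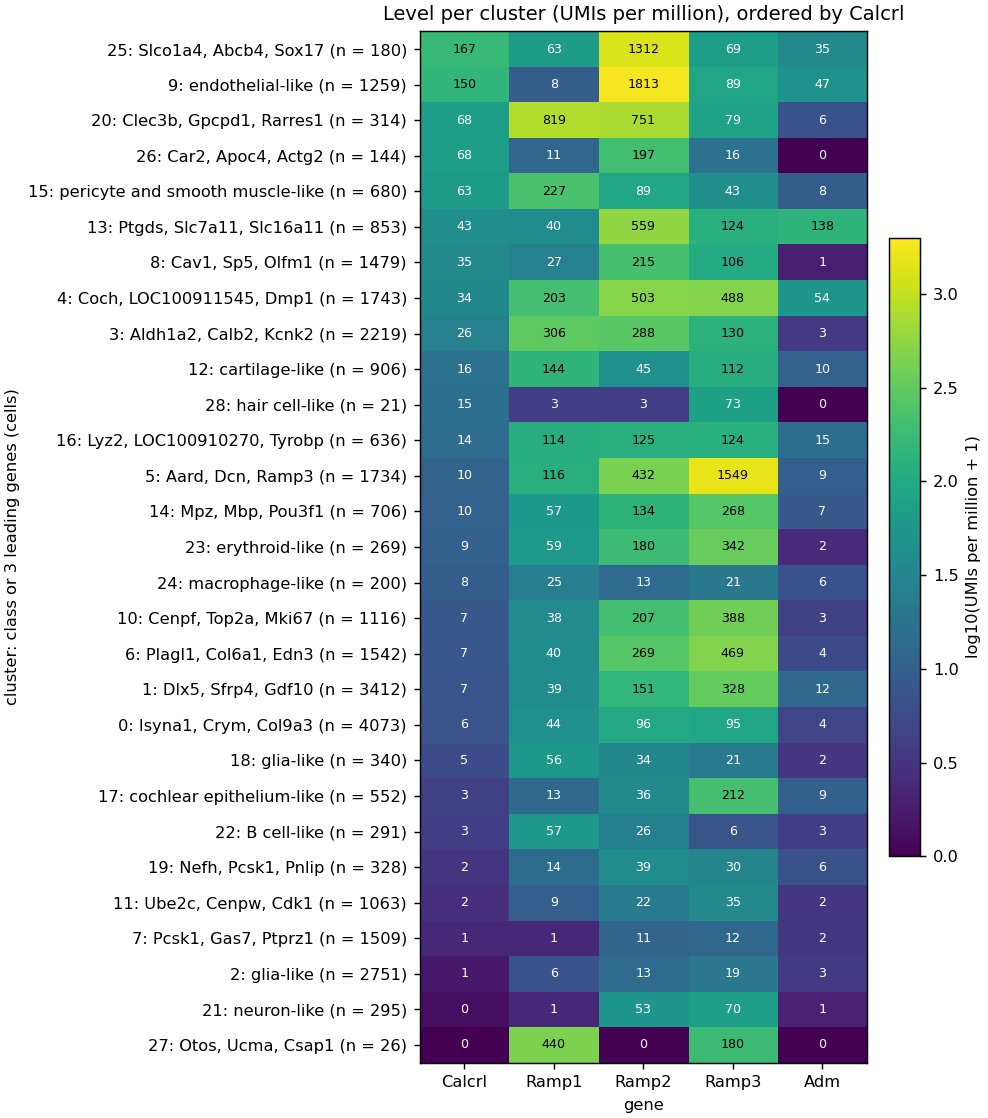
Heat map of the level of the 5 genes (columns) in the 29 clusters (rows, ordered by Calcrl), colored by log10 of CPM plus 1 and printed as CPM, all stages together. Calcrl and Ramp2 share their highest clusters (25 and 9), Ramp1 is highest in cluster 20, Ramp3 in cluster 5 and Adm in cluster 13.

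To compare how often each gene was detected, every cell was thinned to 1000 UMIs, which left out 37 cells at P1, 193 at P7 and 735 at P14. Calcrl was detected in 16.6% of endothelial-like cells (34.4% before thinning), against 0.0327% of glia-like cells (0.421% before thinning, at a median of 4495 UMIs) and 0% of neuron-like cells (0.678%, at a median of 20999 UMIs). Ramp2 was detected in 79.0% of endothelial-like cells (87.9% before thinning) and 1.60% of glia-like cells (6.54%). Ramp1 was detected in 44.6% of cells of cluster 20 (61.8% before thinning) and 21.4% of pericyte and smooth muscle-like cells (53.5%), against 0.784% of glia-like cells (3.3%). Ramp3 was detected in 69.4% of cells of cluster 5 (96.5% before thinning) and 2.55% of glia-like cells (8.93%). Adm was detected in 14.2% of cells of cluster 13 (21.7% before thinning) and 0.327% of glia-like cells (1.2%). In cluster 25 Calcrl was detected in 13.7% of thinned cells (38.9% before thinning, at a median of 2690.5 UMIs). Apart from Calcrl in thinned neuron-like cells, each of these shares was above that of the same gene in glia-like cells.

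Within endothelial-like cells the receptor and its partner behaved differently over the stages. Calcrl stood at 63.2 CPM (52.1 to 75.9) in 165 cells at P1, 120.7 (104 to 140) in 179 cells at P7 and 294 (266 to 324) in 915 cells at P14, with 114, 182 and 405 UMIs. The intervals do not overlap. The log2 ratio was 0.93 (0.59 to 1.29) for P7 to P1, 2.22 (1.92 to 2.53) for P14 to P1 and 1.28 (1.03 to 1.55) for P14 to P7. Ramp2 stood at 1647 (1588 to 1707), 1916 (1846 to 1987) and 1917 (1845 to 1992) CPM, log2 ratios to P1 of 0.22 at both later stages. Between P14 and P1, 22.4% of the 7750 genes passed the 2-fold limit in these cells, and Calcrl was the only member among them. Between P14 and P7 it was again the only one, at a background of 19.2%, and between P7 and P1, at 4.15%, no member passed.

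Thinned shares gave the same order as the levels for Calcrl. It was detected in 11 of 163 endothelial-like cells at P1 (6.75%), 23 of 173 at P7 (13.3%) and 115 of 559 at P14 (20.6%), with 2, 6 and 356 cells left out. Before thinning the shares were 39.4%, 50.8% and 30.3%, at median depths of 9076, 6820 and 1116 UMIs. At P14 both the unthinned share and the depth were lowest. Ramp2 was detected in 77.3%, 75.7% and 80.5% of thinned endothelial-like cells and in 98.8%, 95% and 84.6% before thinning.

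Ramp3 in endothelial-like cells stood at 99.8 CPM at P1, 54.4 at P7 and 113 at P14, so P7 was its lowest stage here and its highest in the whole libraries. The log2 ratio of P7 to P1 was -0.88. Ramp1 was scarce, with 12, 10 and 17 UMIs. Its P14 level of 12.3 CPM moved to 28.0 with a mitochondrial limit of 10% and to 22.7 at resolution 0.4 or with the 5 genes allowed in the clustering. Adm stood at 54.3 CPM (44.1 to 66.2), 51.7 and 32.7 (23.8 to 43.7), a log2 ratio of P14 to P1 of -0.73 (-1.28 to -0.21), while the whole library moved the other way.

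Several other quantities moved with stage in these endothelial-like cells. All 7 endothelial markers found were present, with summed levels of 5011, 6045 and 6965 CPM at P1, P7 and P14. The 8 glia markers summed to 146, 530 and 3534, the mesenchyme markers to 912, 1569 and 1544, the osteoblast markers to 131, 327 and 1584, the erythroid markers to 8610, 2098 and 1123 and the pericyte and smooth muscle markers to 26.1, 77.6 and 127. The median share of mitochondrial UMIs was 7.87%, 8.88% and 3.56%. Their part in the stage values of Calcrl, Ramp3 and Adm, and of the other genes given below for endothelial-like cells, was not tested.

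A finer clustering split the endothelial-like cells by stage and by vessel genes. The larger group had 959 cells, 892 of them from P14, and held 2135 CPM of Slco1a4, a transporter of barrier capillaries, and 762 of Plvap, a protein of fenestrated endothelium. Calcrl stood there at 263 CPM (238 to 290), Ramp2 at 1840, Ramp3 at 77.3 and Adm at 28.0. The smaller group had 299 cells, 22 of them from P14, with 98.3 CPM of Slco1a4, 1482 of Plvap and 50.9 of Esm1, a gene of sprouting vessels. Here Calcrl stood at 95.8 (85.3 to 107), Ramp2 at 1798, Ramp3 at 94.5 and Adm at 56.2. Ramp2 was close in both groups while Calcrl was higher in the first and Adm in the second. Stage and vessel type cannot be told apart in this split.

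In pericyte and smooth muscle-like cells, Ramp1 was the most abundant Ramp at P1 and P7. Calcrl stood there at 47.3 CPM (38.0 to 58.2) in 329 cells at P1, 74.9 (63.1 to 88.3) in 288 cells at P7 and 119 (59.5 to 213) in 63 cells at P14, the last from 11 UMIs. Ramp1 stood at 199, 259 and 130 CPM, Ramp2 at 88.7, 86.0 and 173, and Ramp3 at 28.7, 53.3 and 130. At P1 and P7 Ramp1 exceeded Ramp2, the reverse of endothelial-like cells. The P14 values rest on 12, 16 and 12 UMIs, at a median depth of 1050 UMIs against 5218 at P1, with mesenchyme markers at 10806 CPM against 2811 at P1 and glia markers at 3555 against 214, and the part of these in the P14 values was not tested. At P14 against P1, 33.7% of genes passed the 2-fold limit in these cells, with Calcrl and Ramp3 among them. For P14 to P7 the share was 31.0%, with Ramp3 the only member among them, and for P7 to P1 it was 3.83%, with no member.

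Levels also differed between P1 and P7 in clusters outside the vessels. In cluster 3, led by the retinoic acid enzyme gene Aldh1a2, Calcrl stood at 16.8 CPM at P1 and 38.1 at P7, a log2 ratio of 1.18 (0.90 to 1.46). Ramp1 stood there at 211 and 426, Ramp2 at 228 and 363 and Ramp3 at 90.6 and 180. None of these 4 passed the 2-fold limit with 10 CPM added, which 3.61% of genes passed in cluster 3. In cluster 8, Calcrl stood at 32.8 and 58.5 and Ramp2 at 193 and 463, whereas Ramp1 (26.8 and 24.6) and Ramp3 (106 and 105) were level.

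Ramp3 was higher at P7 than at P1 in most clusters. Of 18 classes and unnamed clusters with at least 50 cells at both P1 and P7, the 95% interval of the ratio lay above 1 in 13, below 1 in 2 and across 1 in 3. The 13 include cluster 14, where 86.3% of cells were marked as doublets, and cluster 7, with 41 UMIs at P1 and 34 at P7. In cluster 1, Ramp3 stood at 88.0 CPM at P1 and 438 at P7, a log2 ratio of 2.32, in cluster 10 at 170 and 761 (2.16) and in cluster 6 at 425 and 875 (1.04). Cluster 0 (led by Isyna1, Crym and Col9a3) had 66.4 and 193 (1.54). The 2 that lay below were endothelial-like cells and cluster 19 (led by Nefh, Pcsk1 and Pnlip, log2 ratio -1.01). Glia-like cells, which hold little Ramp3, also differed, with 8.56 CPM at P1 and 20.5 at P7. The part of free RNA in the lower values was not tested. Between P14 and P7 only 5 classes or clusters could be compared, and the interval of the Ramp3 ratio lay above 1 in 2, below 1 in 2 and across 1 in 1 of them.

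**Figure D3:**
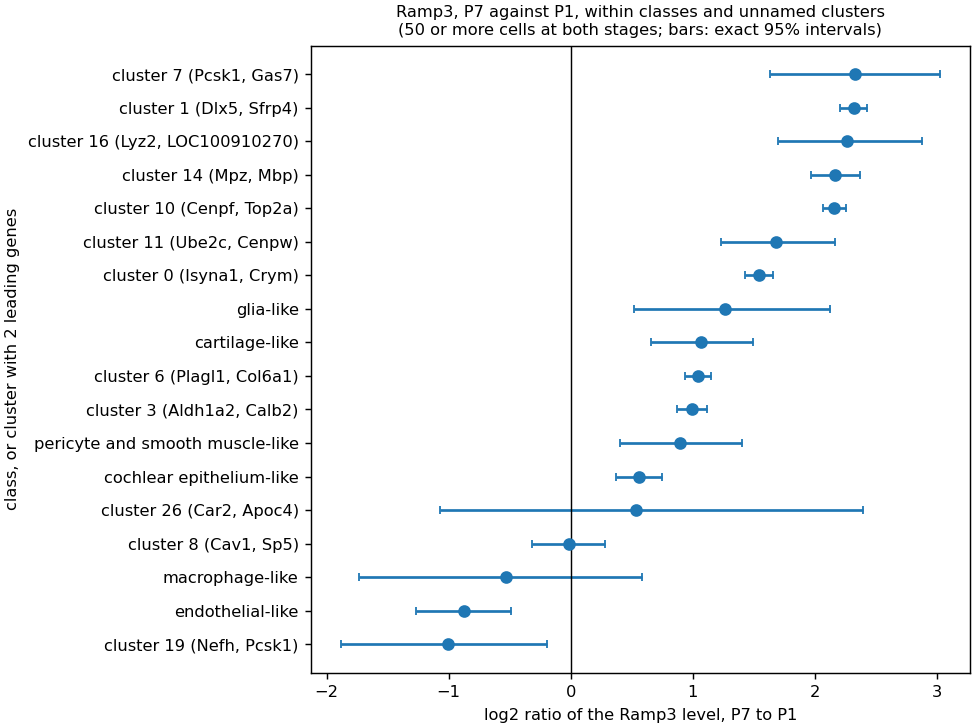
Log2 ratio of the Ramp3 level at P7 to that at P1 in 18 classes and unnamed clusters with 50 or more cells at both stages, with exact 95% intervals as bars and a line at 0. The ratios run from -1.01 in cluster 19 to above 2 in clusters 1, 7, 10, 14 and 16, and 13 intervals lie wholly above 0. Most cells of cluster 14 were marked as doublets.

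For the other genes the same count gave Calcrl 12 above, 0 below and 6 across, Ramp1 10, 1 and 7, Ramp2 10, 1 and 7, and Adm 10, 0 and 8. The 8 for Adm include cluster 26, which held no Adm UMI at P1 or P7 and so had no interval. The exception for Ramp1 was among the largest clusters: in cluster 0 it stood at 49.1 CPM at P1 and 24.9 at P7, a log2 ratio of -0.98. Only 5 classes or clusters had 50 cells at both P1 and P14. Calcrl was above in all 5 of them, Ramp2 in 4, Ramp3 in 3 with 1 below, Ramp1 in 2 and Adm in 2 with 1 below. Ramp3 in cochlear epithelium-like cells was the case below, with 435 UMIs at P1, 495 at P7 and 1 at P14, or 185, 272 and 4.76 CPM. The Calcrl ratios rested on few UMIs outside endothelial-like cells, which held 405 at P14 and 114 at P1. In that order the counts were 11 and 89 in pericyte and smooth muscle-like cells and 27 and 1 in cluster 16. Glia-like cells held 4 and 0, and cochlear epithelium-like cells 3 and 3.

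The next question was which Ramp was detected with Calcrl in the same cell. After thinning, 576 cells (1.94%) held a Calcrl UMI. Of these, 41.0% (36.9 to 45.1) also held Ramp2, 10.9% held Ramp1 and 11.6% held Ramp3, against 16.2%, 6.43% and 15.9% of Calcrl-negative cells. Ramp2 was the partner found most often, and it was more frequent in Calcrl-positive than in Calcrl-negative cells, whereas Ramp3 was not. With Ramp2 only came 34.4% of Calcrl-positive cells, with Ramp1 only 6.77% and with Ramp3 only 5.56%, and no Ramp was seen in 45.3%. Before thinning, 2516 cells held Calcrl, of which 67.0% held Ramp2, 30.4% Ramp1 and 37.9% Ramp3, against 43.6%, 18.0% and 37.7% of the other cells.

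These pooled shares mix cell types. Endothelial-like cells were 3.02% of thinned cells but 25.9% of Calcrl-positive cells, and cluster 3 supplied 10.8%, cluster 8 10.6%, cluster 4 8.68%, cluster 13 7.12% and pericyte and smooth muscle-like cells 6.77%. The share of Calcrl-positive cells with Ramp2 was 21.3% at P1, 26.4% at P7 and 61.1% at P14, from 136, 178 and 262 cells, against 11.6%, 14.2% and 35.3% of Calcrl-negative cells. Endothelial-like cells were 1.29% of kept cells at P1, 1.42% at P7 and 17.3% at P14, and their part in these shares was not tested.

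Within endothelial-like cells the difference between Calcrl-positive and Calcrl-negative cells was small. Ramp2 was detected in 119 of 149 Calcrl-positive cells, 79.9% (72.5 to 86.0), and in 78.8% of Calcrl-negative cells. Ramp3 was detected in 7.38% against 6.84% and Ramp1 in 1.34% against 0.938%. Ramp2 only was found in 108 of the 149 cells (72.5%), Ramp2+Ramp3 in 9 (6.04%) and no Ramp in 29 (19.5%). Ramp2 was the usual partner of Calcrl here, and most endothelial-like cells held it whether or not Calcrl was seen. Before thinning, 433 cells held Calcrl, with Ramp2 in 91.9% against 85.8%, Ramp3 in 14.1% against 10.0%, Ramp1 in 3.70% against 1.82% and Adm in 14.8% against 8.84%. By stage, the thinned share with Ramp2 was 81.8% of 11 cells at P1, 65.2% of 23 at P7 and 82.6% of 115 at P14, against 77.0%, 77.3% and 80.0% of Calcrl-negative cells.

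Pericyte and smooth muscle-like cells differed from endothelial-like cells in the partner. Of their 39 Calcrl-positive cells after thinning, 25.6% held Ramp1, 10.3% Ramp2 and 5.13% Ramp3, against 21.2%, 8.10% and 3.31% of Calcrl-negative cells. Ramp1 only was seen in 23.1% and no Ramp in 61.5%. Before thinning, 188 cells held Calcrl, with Ramp1 in 60.1% against 51.0%, Ramp2 in 30.3% against 29.5% and Ramp3 in 12.2% against 13%. Cluster 20 held both kinds of partner: of its 23 Calcrl-positive cells, 60.9% held Ramp1 and 47.8% Ramp2, against 43.3% and 51.3%, and Ramp1+Ramp2 without Ramp3 was seen in 26.1%.

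In the remaining clusters Calcrl-positive cells were few. In cluster 25, 87.5% of 24 held Ramp2, against 71.5%. In cluster 3, 25.8% of 62 held Ramp1 and 21.0% Ramp2, against 21.3% and 23.6%. In cluster 8, 19.7% of 61 held Ramp2, against 17.4%, and 3.28% held Ramp3, against 9.53%. Cluster 5, the richest in Ramp3, had only 16 Calcrl-positive cells, of which 56.2% held Ramp3, against 69.5%. Before thinning 113 cells of cluster 5 held Calcrl, of which 98.2% held Ramp3, against 96.4%. In cluster 13, where the ligand was highest, 8 of 41 Calcrl-positive cells (19.5%) held Adm, against 13.9% of the others.

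**Figure D4:**
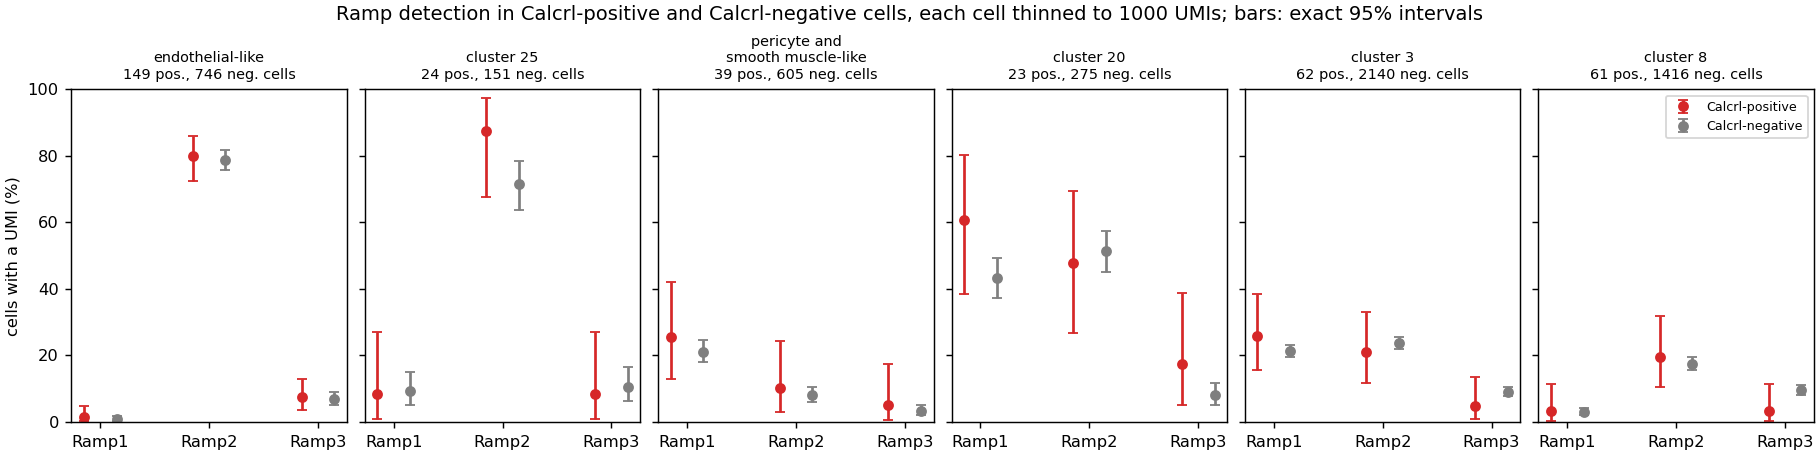
Percent of cells with a UMI of Ramp1, Ramp2 or Ramp3 among Calcrl-positive (red) and Calcrl-negative (gray) cells of 6 classes or clusters, each cell thinned to 1000 UMIs, with exact 95% intervals as bars. Ramp2 leads in endothelial-like cells (79.9% and 78.8%) and cluster 25, Ramp1 leads in pericyte and smooth muscle-like cells (25.6% and 21.2%), and the red and gray intervals overlap for every gene in every panel.

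Across the 27 clusters of 50 or more cells, Calcrl and Ramp2 had the most similar pattern of any 2 members, with a Pearson r of log2 levels of 0.79. Calcrl had an r of 0.53 with Adm, 0.38 with Ramp1 and 0.04 with Ramp3. These clusters share 3 libraries of unequal depth, and the r values describe them without a test. Over 7750 genes, those most like Calcrl were Dock6 (0.93), Slfn5 (0.91), Tcf4 (0.90), Tmem204 (0.88) and AC141102 (0.87), and those most like Ramp2 were Jup (0.93), Tcf4 (0.91), Plcg1 (0.91), Arhgap29 (0.90) and Pcdh19 (0.89). Tcf4 stood in both lists. Those most like Ramp1 were Gsn (0.85), Anpep (0.81), Pbld1 (0.78), Casp12 (0.76) and Tnfrsf11b (0.76). Ramp3 was most like Creb3l1 (0.91), Igfbp5 (0.88), Igf2 (0.88), Pir (0.88) and Mpped2 (0.87), and Adm was most like Usp53 (0.86), Dock9 (0.86), Errfi1 (0.84), Gja1 (0.84) and Cdc14a (0.83).

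The other ligands of this receptor family were nearly absent. Calca, which encodes CGRP and calcitonin, had 234 UMIs, of which 212 were from P1, 21 from P7 and 1 from P14. Its highest level was in the 21 hair cell-like cells of P1, with 47 UMIs or 143 CPM (105 to 190), while neuron-like cells held 42 UMIs and endothelial-like cells 1. Calcb had 17 UMIs, Adm2 had 5 and the amylin gene Iapp 2, and the calcitonin receptor Calcr had 3.

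Atypical receptors that have been linked to adrenomedullin were better represented. Gpr182, an atypical receptor once proposed to bind it, stood at 2.48 CPM at P1, 9.83 at P7 and 43.7 at P14 in the whole libraries, and was highest in cluster 20 with 291 (256 to 329). In endothelial-like cells Gpr182 stood at 2.22, 7.30 and 24.0. Ackr3, the atypical chemokine receptor that also takes up adrenomedullin, stood at 3.38, 19.8 and 33.4 in the libraries and at 9.98, 23.2 and 54.5 in endothelial-like cells. Both had the stage order of Calcrl. Crcp, a component known to aid CGRP receptor signaling, had the reverse order, with 50.9, 42.2 and 29.6 in the libraries.

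Genes that process or break down the peptide were measured too. Pam, the enzyme that amidates adrenomedullin, stood at 201, 202 and 468 CPM in endothelial-like cells at P1, P7 and P14. Ece1, an endopeptidase, stood there at 94.2, 117 and 249, and the carboxypeptidase gene Cpe at 138, 266 and 493. Each of these passed the 2-fold limit upward between P14 and P1 in these cells, as did 16.9% of all genes. The median log2 ratio over all genes was 0.22, and the list held 6 genes. In the whole libraries Ece1 passed upward and Mme, which degrades the peptide, passed downward with 166, 81.5 and 34.5. Of all genes 11.7% passed upward and 6.21% downward there.

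The cAMP route and the desensitization genes gave fewer values. Of 22 cAMP genes 7 were abundant enough to compare, and of 8 desensitization genes 4. In the whole libraries none of these passed the 2-fold limit in either direction between P14 and P1. In endothelial-like cells 1 of the 7 passed upward (Adcy6, an adenylyl cyclase, with 6.65, 19.9 and 42.8 CPM) and 1 of the 4 (Nsf, with 11.1, 15.3 and 34.1), with list medians of 0.38 and 0.52 against 0.22 over all genes. Of all genes 16.9% passed upward in these cells.

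Adm is a hypoxia-responsive gene, and 11 of 15 others on that list were measured. In the whole libraries 3 passed upward between P14 and P1 (Slc2a1, Bnip3 and Ndrg1) and none downward, where 11.7% of all genes passed upward and 6.21% downward, with a list median log2 ratio of 0.31 against 0.08 over all genes. In endothelial-like cells, where Adm was lowest at P14, 3 passed upward and 3 downward, beside 16.9% and 5.48% of all genes. Slc2a1, the glucose transporter of barrier endothelium, stood at 499, 769 and 1383 CPM and Ndrg1 at 103, 78.9 and 511, while the glycolytic genes Pgk1 (251, 202 and 76.2) and Ldha (508, 478 and 176) and the kinase gene Pdk1 (41.0, 20.6 and 14.5) had the opposite order. The list thus held values in both directions.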

How the data were processed

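Single-cell 3′ libraries of P1, P7 and P14 cochlea (Chromium V3) were measured, 1 per stage. The authors aligned reads to rn6 and counted UMIs with Cell Ranger, and the deposited matrices hold raw UMI counts per gene and barcode. Per the labels' processing notes bcl2fastq, Cell Ranger and Seurat 3.1.1 were used, and the matrix headers name software 3.1.0. The annotation and the cell calling are not given in the sources used here. Counts of 3′ tags are per molecule, so levels of different genes compare as UMI counts, though capture can differ between genes.

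The matrices held 34927 barcodes, the number that the study gives as cells passing its filters. The stated filters (above 500 and below 5000 genes, 500 UMIs or more, mitochondrial UMIs under 25%) left 30641. Doublets were not removed. Scrublet in scanpy marked 4.87%, 6.16% and 0.0379% of cells at P1, P7 and P14, so the caller did not work at P14, and most cells of cluster 14 were marked.

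Cells were clustered with Seurat 5.3.0 (R 4.3.3, Matrix 1.6.5) after LogNormalize, on 2000 variable genes, 10 principal components and resolution 0.8, without the 5 genes, of which Ramp1, Ramp2 and Ramp3 would have been among the variable genes. A cluster was named when the median log2 ratio of a marker list against other cells was at least 1, exceeded the next list by at least 1, at least 3 markers were found, and more of its own markers than of any other list were among its 10 leading genes. This naming rule was set after values were seen, and shares may differ from the study's because names were rebuilt. Clusters that failed it are given by number with their 3 leading genes, those with the largest ratio among genes in at least 25% of cells.

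Counts were summed per class or cluster and stage and divided by all UMIs of the same cells, giving CPM, the UMIs of a gene scaled to 1000000 UMIs. Intervals at 95% were exact Poisson for levels, exact conditional binomial for ratios and Clopper-Pearson for shares. For co-detection each cell was thinned to 1000 UMIs. Genes named are the 5 members, the pathway and marker lists, leading genes and the 5 genes most like each member. The members and lists were chosen with earlier results of these data known. The steps were tested on simulated data. Python 3.11.15, numpy 2.4.6, scipy 1.17.1, pandas 2.3.3, scanpy 1.11.5, anndata 0.12.19 and matplotlib 3.10.9 were used. Alternatives were the mitochondrial limit, the number of components, the resolution, the 5 genes kept in the clustering, doublet removal, another level measure, other thinning, other detection, another added level and another minimum level. List genes left out for want of a row in the matrices included Pecam1, Ocm, Cd79a, Trbc2, Hba-a1, Hbb-bs, Dct, Ptgis, Vipr1 and Ackr1. Some list genes are not reported here. Genome coordinates and sequences were not used here.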

Additional observations from a re-analysis of the deposited data

Results flagged for a closer look

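For some genes the ratio between stages had opposite signs in different classes, with 95% intervals on opposite sides of no change. None of these differences between classes was tested, and each stage is 1 library.

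Ramp3 differed in this way at every pair of stages. For P7 to P1 its log2 ratio was 1.06 in cartilage-like, 0.56 in cochlear epithelium-like, 1.26 in glia-like and 0.89 in pericyte and smooth muscle-like cells, but -0.88 in endothelial-like cells. For P14 to P1 it was 1.27 in glia-like and 2.18 in pericyte and smooth muscle-like cells, but -5.28 in cochlear epithelium-like cells, where the P14 value is 1 UMI in 53 cells. For P14 to P7 it was 1.05 in endothelial-like and 1.29 in pericyte and smooth muscle-like cells, but -5.84 in cochlear epithelium-like cells.

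Adm had 11 UMIs at P1, 22 at P7 and 8 at P14 in cochlear epithelium-like cells, with log2 ratios of 3.03 for P14 to P1 and 1.66 for P14 to P7. In endothelial-like cells the same ratios of Adm were -0.73 and -0.66. For P14 to P7, Ramp1 had a log2 ratio of 3.24 in glia-like cells, where nearly all P14 cells lay in cluster 18 and nearly all P7 cells in cluster 2, and of -0.99 in pericyte and smooth muscle-like cells, where the P14 level rests on 12 UMIs.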

How the results depend on the processing

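No paired analysis was possible because each stage has 1 library and no value comes from a test. No value changed sign under any alternative run. All ratios here are log2, and the cause of each shift was not tested. With the mitochondrial limit at 10%, P14 to P1 was 1.57 for Ramp1 and 1.81 for Ramp2, and endothelial-like to other cells was 3.42 for Calcrl (3.56 in the report's clusters) and 3.32 for Ramp2 (3.46), while pericyte and smooth muscle-like to other cells was 1.38 for Ramp1 (1.65). Without cells marked as doublets, the endothelial-like ratios were 3.69 for Calcrl and 3.54 for Ramp2. As a mean of per-cell levels, P14 to P1 was 2.96 for Calcrl, 1.52 for Ramp1, 2.31 for Ramp2, 1.11 for Ramp3 and 3.79 for Adm, and the endothelial-like ratios were 4.05 for Calcrl and 3.34 for Ramp2. Calcrl-positive endothelial-like cells held Ramp2 in 91.9% without thinning and 66.4% when thinned to 500 UMIs, and pericyte and smooth muscle-like ones held Ramp1 in 60.1% without thinning. In alternatives added after seeing the data, leaving out clusters 9 and 25 gave P14 to P1 of 1.55 for Calcrl, 1.87 for Ramp1, 1.45 for Ramp2, 0.76 for Ramp3 and 3.89 for Adm. Leaving out the P14 library gave endothelial-like ratios of 2.97 for Calcrl and 3.55 for Ramp2, 1.78 for Ramp1 in pericyte and smooth muscle-like cells, and Ramp2 in 70.6% of Calcrl-positive endothelial-like cells. The genes past the 2-fold limit numbered 411 between P7 and P1, 964 with 1 CPM added and 197 with a minimum of 50 CPM. Between P14 and P1 they numbered 1391, 2148 and 595. With every gene that had a UMI compared, these counts were 429 and 1879. The remaining values that answer a comparison moved less than their interval. Depth limits detection in single cells, with a median of 1614 UMIs at P14.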

Other observations

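Some vessel type genes also differed between stages in the endothelial-like cells. Of 11 such genes 5 were measured, and 2 (Sox17 and Slco1a4) passed the 2-fold limit upward between P14 and P1, where 16.9% of all genes did, with a list median log2 ratio of 1.00 against 0.22 over all genes. Sox17, a transcription factor of arterial endothelium, stood at 203 CPM at P1, 316 at P7 and 1137 at P14. Slco1a4 stood at 36.0, 174 and 2319. Plvap, at 1232, 1589 and 906, was lowest at P14.

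Other receptors that can pair with RAMP proteins were scarce, and 1 of 9 was abundant enough to compare. Pth1r, the parathyroid hormone receptor, stood at 30.0 CPM at P1, 45.1 at P7 and 39.1 at P14 in the whole libraries. It was highest in cluster 4, with 109 CPM, a cluster in which Ramp3 stood at 488. Vegfa, a hypoxia-responsive ligand for endothelial cells, stood at 28.2, 37.7 and 51.0 in the whole libraries, and clusters 20, 4 and 13 held the highest levels, with 104, 89.2 and 65.5. Of the 4 clusters with the highest Adm, clusters 13 and 4 were thus also among the highest for Vegfa. Of 11 vasoactive genes 2 were measured, and 1 of them, the endothelin receptor Ednrb, was past the 2-fold limit downward between P14 and P1, where 6.21% of all genes were, with 155, 245 and 45.1 CPM.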
